A study of Mus musculus with 18 samples.

Results

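The 6 genes described here are ones that heart muscle is known for, followed as embryonic stem cells turned into cardiomyocytes. They were Nppa and Nppb, which encode the natriuretic peptides of the atrium and ventricle, Mb (myoglobin), and the creatine kinases Ckm, Ckb and Ckmt2. They were taken by gene symbol: 6 of the 18193 genes on the array, measured by 8 of its 45101 probe sets. RNA was measured on 18 one-colour Affymetrix mouse arrays, in 9 groups of 2. Selected cardiomyocytes (2 arrays) came from a D3 mouse embryonic stem cell clone in which the promoter of the alpha myosin heavy chain gene (Myh6) drives the neomycin resistance gene, so that G418 leaves cells in which this promoter is active. The labels give these cells no day and no batch. The other 16 arrays came from another D3 clone, in which an Nkx2-5 enhancer joined to the hsp68 minimal promoter drives green fluorescent protein (GFP), sorted on days 5, 6, 7 and 8 of differentiation into GFP-positive and GFP-negative cells. Each day and fraction has 1 array in batch 1 and 1 in batch 2. Both clones were grown as embryoid bodies, floating aggregates started in hanging droplets, with ascorbic acid in the medium. Each transgenic line is 1 clone. Nothing in the labels states that the 2 arrays of a group were grown as separate cultures, so the spread behind each p-value is that of these arrays and may be a technical one.

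Natriuretic peptides are hormones that heart muscle secretes when it is stretched. They are cut from longer precursors by the proteases corin and furin, act through receptors that make cyclic GMP, and are removed by a clearance receptor. In the mouse embryo Nppa is switched on in the chamber muscle of the forming heart and serves as a marker of it, and both genes fall in the ventricle after birth. Myoglobin stores oxygen in heart and slow skeletal muscle. Creatine kinases pass phosphate between ATP and creatine: Ckb is the isoform of brain and of early muscle, Ckm that of mature muscle, and Ckmt2 sits in muscle mitochondria.

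Values are MAS5 signals on a linear scale. The median of all values was 22.5, and a signal under it was read as dim. Differences are given as log2(signal + 6.8), which understates the change of dim genes, with the standard error (SE) of a fit over all 18 arrays and a Benjamini-Hochberg adjusted p over 13379 genes. A gene was called at an adjusted p under 0.05. Levels of different probe sets were not compared. Where one gene is subtracted from another on the same array, only the change of that value between groups is read. Array medians ran from 18.2 to 29.3, and the correlation between the 2 arrays of a group ran from 0.936 to 0.985 across genes, which are not independent. The batches stood apart on days 5 and 6: on GFP-positive arrays the 8 cardiomyocyte markers summed to 9015.2 in batch 1 and 2110.7 in batch 2 on day 5, and to 11154.6 in batch 1 and 1079.3 in batch 2 on day 6. The 3 embryonic red cell markers with a probe set summed to 10993.3 in batch 1 and 110.8 in batch 2 on day 5.

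The labels were checked first on the genes behind the transgenes. Nkx2-5 signal was above that of the GFP-negative partner on all 8 GFP-positive arrays, by 1.07 ± 0.26 (SE) over all days (adjusted p = 0.0441; 0.0806 with arrays scaled to equal medians). Its signals were 474.4 and 500.0 in selected cardiomyocytes, against 249.2 and 323.2 in day 8 GFP-positive cells, which was not a called difference (adjusted p = 0.270). Myh6, the gene whose promoter was used for selection, had 8122.3 and 7891.5 in selected cardiomyocytes, against 2478.2 and 2592.9 in day 8 GFP-positive cells. Its difference of 1.66 ± 1.62 (SE) was not called either (adjusted p = 0.462). The SE pools the spread within all 9 groups, and Myh6 differed widely between batches on days 5 and 6. In day 5 GFP-positive cells it had 729.5 in batch 1 and 19.5 in batch 2. The missing call therefore does not show equal levels. All 8 cardiomyocyte markers were at or above 22.5 in selected cardiomyocytes, and in both fractions of day 8.

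In selected cardiomyocytes 4 of the 5 tested genes were higher than in day 8 GFP-positive cells, namely Nppa, Nppb, Mb and Ckmt2, where 35.6% of all genes were called in either direction, 13.7% higher and 21.8% lower. Ckmt2 entered the test only through the selected cardiomyocytes, being dim on all 16 sorted arrays, so its place in the count was in part set by the filter. The same 4 genes were higher than in day 8 GFP-negative cells, where 37.2% of all genes were called, 15.8% higher and 21.4% lower. The selected arrays enter both comparisons. The median difference of the 5 genes was 4.64 against GFP-positive and 6.89 against GFP-negative cells, beside medians of -0.16 and -0.12 over all genes. Clone, selection and stage cannot be told apart in these comparisons, and in bulk RNA fewer cells of a type cannot be told apart from less RNA per cell. With arrays scaled to equal medians the all-gene medians were 0.33 and 0.17, and 75.5% and 66.5% of the calls were higher, in place of 38.6% and 42.5%; 47.1% and 47.0% were higher after quantile normalization. The same comparisons counted 4 of the 5 genes under both scalings.

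**Figure D1:**
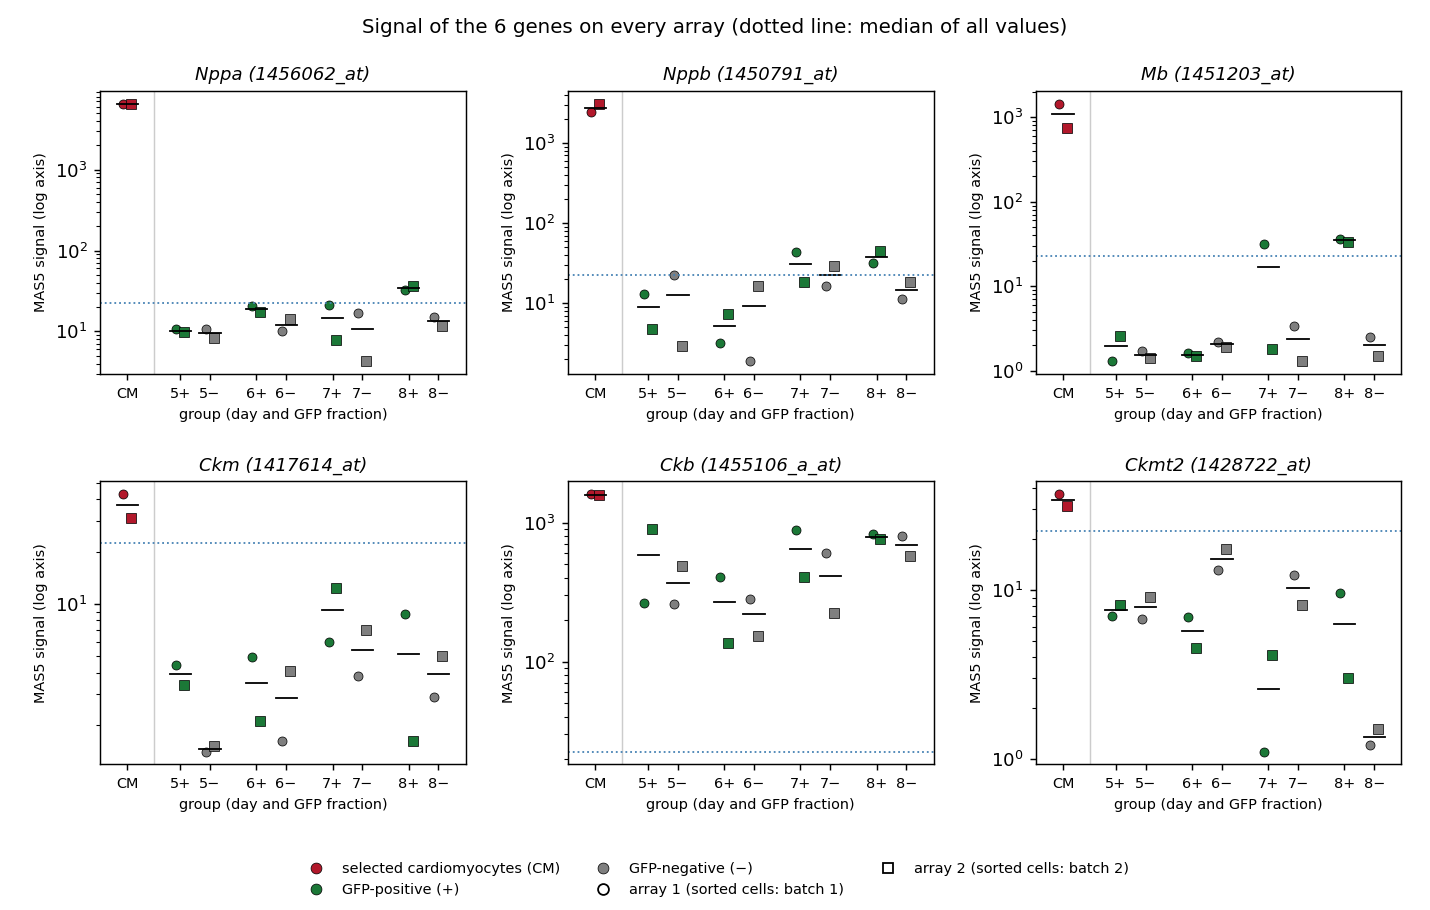
MAS5 signal of the 6 genes on each of the 18 arrays (log axes), with selected cardiomyocytes (CM) on the left, then days 5 to 8 with GFP-positive (+) beside GFP-negative (−) cells; circles and squares are the arrays of a group, bars their means and the dotted line the median of all values, 22.5. For the probe sets drawn, both CM arrays lie above all 16 sorted arrays. The share of all genes with such a separation was not counted, here or for the separations of single genes described in the text. Ckmt2 and the Ckm probe set drawn passed the filter only through CM. The Ckm probe set that entered by rule and the other Mb probe set are not drawn, and neither shows this separation.

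Nppa had the largest difference of the 6 genes. Its probe set gave 6446.5 and 6508.4 in selected cardiomyocytes, against 32.6 and 36.3 in day 8 GFP-positive cells and 15.1 and 11.8 in day 8 GFP-negative cells. On the other sorted arrays it ran from 4.3 to 21.2, all dim, so the groups did not overlap and nearly the whole range of the gene lay between sorted cells and selected cardiomyocytes. The mean signal was 188 times that of day 8 GFP-positive cells, and the difference of 7.30 ± 0.37 (SE) ranked 1 by size among the 13379 genes (adjusted p = 1.35e-07). Against day 8 GFP-negative cells it was 8.33 ± 0.37 (SE, adjusted p = 3.32e-08) and also ranked 1.

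Among sorted cells Nppa stayed low but was highest in the late GFP-positive fraction. GFP-positive cells of days 5, 6, 7 and 8 had 10.6 and 9.9, 20.5 and 17.4, 21.2 and 7.8, and 32.6 and 36.3. GFP-negative cells of the same days had 10.7 and 8.3, 10.2 and 14.1, 16.9 and 4.3, and 15.1 and 11.8. Both day 8 GFP-positive arrays lay above all other sorted arrays, the fractions did not overlap on day 6, and they overlapped on days 5 and 7. Day 8 exceeded day 5 in GFP-positive cells by 1.27 ± 0.37 (SE, adjusted p = 0.0301), a step of 1.18 in batch 1 and 1.37 in batch 2. On day 8 the excess over GFP-negative cells was 1.03 ± 0.37 (SE), 0.85 in batch 1 and 1.21 in batch 2, and was not called (adjusted p = 0.158). The day 8 over day 5 call was lost under quantile normalization (0.84, adjusted p = 0.106), with equal array medians (0.85, adjusted p = 0.0772), in a fit of sorted arrays alone (adjusted p = 0.0530) and on leaving out any 1 of the 4 arrays (adjusted p 0.0607 to 0.153). It was 0.46 (adjusted p = 0.225) with days 7 and 8 set against days 5 and 6.

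Nppb, the neighbour of Nppa on chromosome 4, was also highest in selected cardiomyocytes, with more spread among sorted cells. It gave 2449.5 and 3071.9 in selected cardiomyocytes, against 31.9 and 44.5 in day 8 GFP-positive cells and 11.2 and 18.3 in day 8 GFP-negative cells. GFP-positive cells of days 5, 6 and 7 had 13.1 and 4.8, 3.2 and 7.3, and 43.0 and 18.4, and GFP-negative cells of those days had 22.3 and 2.9, 1.9 and 16.4, and 16.5 and 28.8. Selected cardiomyocytes stood clear of all sorted arrays, and day 8 GFP-positive cells overlapped day 7 GFP-positive cells but no GFP-negative group. The mean signal in selected cardiomyocytes was 72.3 times that of day 8 GFP-positive cells, a difference of 5.95 ± 0.57 (SE, adjusted p = 1.34e-05). Against day 8 GFP-negative cells it was 7.02 ± 0.57 (SE, adjusted p = 4.10e-06). Day 8 over day 5 in GFP-positive cells was 1.55 ± 0.57 (SE) and missed the threshold (adjusted p = 0.0716), whereas days 7 and 8 over days 5 and 6 gave 1.56 and passed it (adjusted p = 0.0196). The difference between the fractions on day 8, 1.07 ± 0.57 (SE), was not called (adjusted p = 0.337).

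Within an array Nppa minus Nppb was 1.08 to 1.39 on the log2 scale in selected cardiomyocytes, against -0.25 to 0.03 in day 8 GFP-positive cells. Of the 16 sorted arrays 15 lay below both selected arrays. The probe sets thus changed unequally between selected and day 8 GFP-positive cells, and on the other 14 sorted arrays Nppa was dim.

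The promoters of the pair are shown because both genes were higher in selected cardiomyocytes and Nppa ranked first. They are taken from the RefSeq table of GRCm38.p6, from 250 bases before the annotated start to 50 after it. Bases before the start have negative positions, and there is no position 0. Capitals mark TNAAGTG, the sequence that Nkx2-5 is known to bind, and AGATAA and TGATAA, which GATA factors are known to bind, searched on both strands. Nppa lies on the plus strand at chr4:148000472-148000771 and Nppb on the plus strand at chr4:147985650-147985949.
Nppa: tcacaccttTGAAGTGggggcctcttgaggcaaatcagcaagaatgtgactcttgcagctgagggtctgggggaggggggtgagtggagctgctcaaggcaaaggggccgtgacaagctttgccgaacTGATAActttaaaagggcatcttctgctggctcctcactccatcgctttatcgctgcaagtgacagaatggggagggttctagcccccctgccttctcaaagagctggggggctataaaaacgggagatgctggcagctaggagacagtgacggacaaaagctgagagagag
Nppb: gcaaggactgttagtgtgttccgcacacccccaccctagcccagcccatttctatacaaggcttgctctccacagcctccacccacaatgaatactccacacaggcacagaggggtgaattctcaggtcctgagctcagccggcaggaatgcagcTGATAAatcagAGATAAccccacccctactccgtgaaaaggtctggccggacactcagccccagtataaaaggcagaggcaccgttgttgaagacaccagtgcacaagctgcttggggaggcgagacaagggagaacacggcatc
The Nppa window held TNAAGTG at position -241 and TGATAA at position -122, and the Nppb window held TGATAA at -95 and AGATAA at -84. Of 32817 promoters in the table, 11.5% held TNAAGTG, 9.06% TGATAA and 11.2% AGATAA. A match is a run of letters and not evidence of binding in these cells. All 6 genes had an entry in the table, and Mb had 3.

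Of 9 other tested genes of the natriuretic system none was higher and 2 were lower in selected cardiomyocytes than in day 8 GFP-positive cells, beside 13.7% and 21.8% of all genes, with a median of 0.34 beside -0.16 over all genes. The lower ones were Npr3, the clearance receptor, with 42.5 and 38.4 against 375.8 and 380.9 (-3.03, adjusted p = 0.0289), and Pde5a, which breaks down cyclic GMP, with 30.1 and 31.4 against 75.7 and 64.8 (-1.03, adjusted p = 0.00527). Of 10 genes that passed the filter after rescaling, 2 were higher and 2 lower after quantile normalization and 4 higher and 0 lower with equal array medians, with Npr3 at -2.53 (adjusted p = 0.0599) and Pde5a at -0.57 (adjusted p = 0.110) under the second. Corin, the protease that activates the Nppa precursor, had 212.4 and 183.9 in selected cardiomyocytes, against 147.5 and 127.8 in day 8 GFP-positive cells. In GFP-positive cells Corin had 147.5 and 127.8 on day 8, against 10.1 and 2.2 on day 5 (3.55, adjusted p = 0.00853). Npr3 also was higher on day 8 than on day 5 in these cells (3.70, adjusted p = 0.0219). They were the 2 of 9 tested genes called there, where 19.4% of all genes were called.

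Myoglobin was high in selected cardiomyocytes and, in sorted cells, seen only late and in the GFP-positive fraction. The Mb probe set with the higher mean, which entered for the gene, gave 1440.1 and 742.0 in selected cardiomyocytes, against 36.6 and 33.6 in day 8 GFP-positive cells. GFP-positive cells of days 5, 6 and 7 had 1.3 and 2.6, 1.6 and 1.5, and 31.8 and 1.8, and the GFP-negative arrays of all days ran from 1.3 to 3.4. Signal above the dim range thus appeared in both day 8 GFP-positive arrays and in the batch 1 array of day 7 GFP-positive cells, and on no GFP-negative array. Selected cardiomyocytes exceeded day 8 GFP-positive cells by 4.64 ± 0.54 (SE, adjusted p = 5.38e-05), 31.1 times in mean signal, and day 8 GFP-negative cells by 6.89 ± 0.54 (SE, adjusted p = 3.10e-06).

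Mb was the 1 of 5 tested genes called between the fractions on day 8, where 2.58% of all genes were called, 2.32% higher and 0.254% lower in GFP-positive cells. The difference was 2.25 ± 0.54 (SE, adjusted p = 0.0455), 2.22 in batch 1 and 2.28 in batch 2. The call was marginal: 7 other settings gave adjusted p-values of 0.0526 to 0.0742, with 0.0663 to 0.251 on leaving out 1 of the 4 arrays and the difference itself then between 2.17 and 2.33. Over time in GFP-positive cells Mb was 2.26 ± 0.54 (SE) higher on day 8 than on day 5 (adjusted p = 0.0143), a call lost on leaving out any of 3 of the 4 arrays (adjusted p up to 0.0902). In GFP-negative cells the same step was 0.07 ± 0.54 (SE, adjusted p = 0.944), and the test of the difference between the steps, 2.19 ± 0.76 (SE), was not passed (adjusted p = 0.231).

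The other Mb probe set did not follow. It had 1.1 and 13.9 in selected cardiomyocytes and from 2.0 to 20.8 on the sorted arrays, so it was dim throughout. Fitted by itself with no filter it differed by 0.37 ± 0.45 (SE, adjusted p = 0.637) between selected cardiomyocytes and day 8 GFP-positive cells. Averaged over both probe sets, the day 8 difference between the fractions was 1.13 and the step over time 0.83, and neither was called.

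Of 9 tested genes of oxygen sensing and mitochondrial control, 3 were higher and 2 lower in selected cardiomyocytes than in day 8 GFP-positive cells, beside 13.7% and 21.8% of all genes, with a median of 0.04. Ppargc1b, a coactivator of mitochondrial genes, was higher by 1.85 (adjusted p = 2.46e-04). The oxygen sensors Egln3 and Egln1, which mark hypoxia-inducible factors for breakdown, were lower: Egln3 had 60.2 and 51.7 against 729.1 and 707.5 (-3.53, adjusted p = 5.93e-07), and Egln1 differed by -1.29 (adjusted p = 1.86e-04). Hif1a was higher by 0.71 (adjusted p = 0.00828), and by 0.50 after quantile normalization (adjusted p = 0.0609). Between day 8 and day 5 in GFP-positive cells 1 of the 9 was called: Epas1, another hypoxia-inducible factor, with 2655.0 and 2579.5 on day 8, against 657.4 and 21.5 on day 5 (4.26, adjusted p = 0.0230), where 19.4% of all genes were called. Of 10 tested after rescaling, 2 were higher and 1 lower after quantile normalization, and 1 higher and 2 lower with equal array medians.

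**Figure D2:**
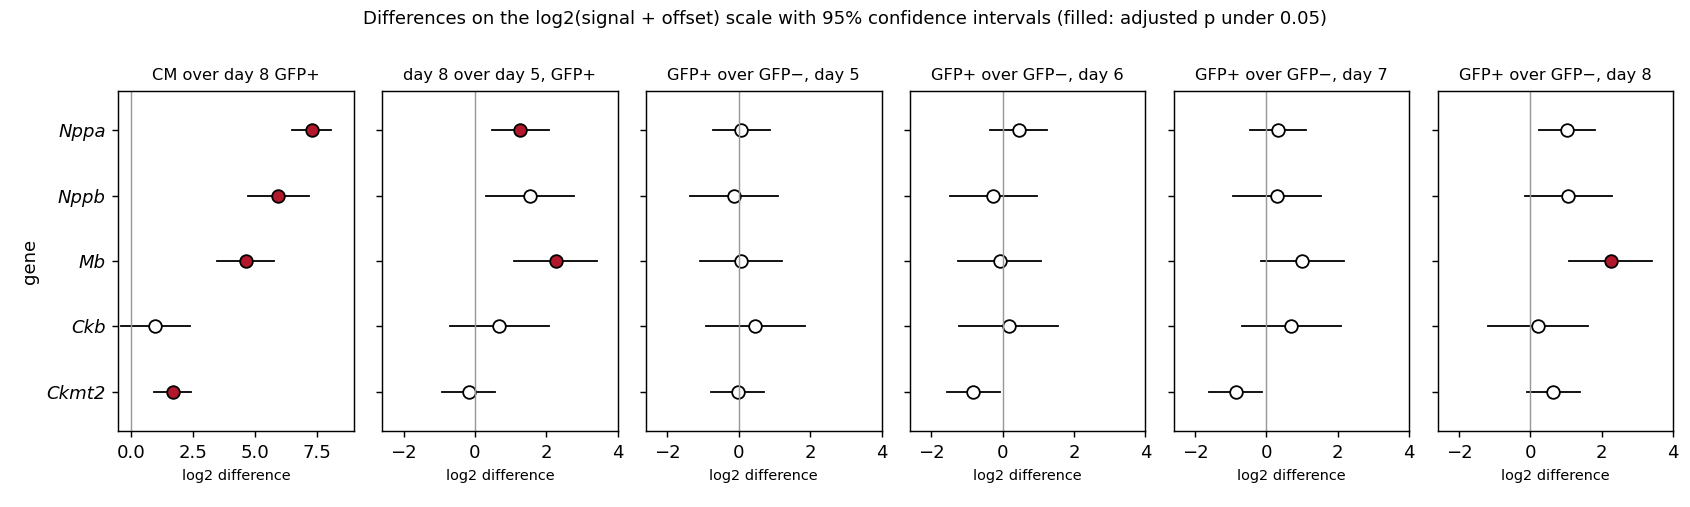
Log2 differences of the 5 tested genes with 95% confidence intervals for selected cardiomyocytes (CM) over day 8 GFP-positive cells, day 8 over day 5 in GFP-positive cells, and GFP-positive over GFP-negative cells on each day; filled points have an adjusted p under 0.05. The first panel has a wider axis and holds 4 filled points, the second holds 2 (Nppa and Mb), and the day 8 panel holds 1 (Mb).

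Of the creatine kinases, Ckb was the one well above the dim range on all 18 arrays. Its signals were 1597.3 and 1580.5 in selected cardiomyocytes, against 824.5 and 759.1 in day 8 GFP-positive cells and 800.2 and 578.2 in day 8 GFP-negative cells. GFP-positive cells of days 5, 6 and 7 had 263.9 and 899.8, 405.1 and 135.5, and 887.9 and 407.5, and GFP-negative cells of those days had 257.7 and 483.1, 283.7 and 153.0, and 607.0 and 222.5. Both selected arrays were above all 16 sorted arrays, but arrays of one sorted group differed by up to several-fold. Against day 8 GFP-positive cells the difference was 1.00 ± 0.64 (SE) with a 95% confidence interval of -0.39 to 2.39, and it was not called (adjusted p = 0.251). Against day 8 GFP-negative cells it was 1.22 ± 0.64 (SE, adjusted p = 0.159), and 1.65 with an adjusted p of 0.0271 against days 7 and 8 of that fraction. GFP-positive cells had the higher Ckb signal in 7 of 8 pairs, by 0.39 ± 0.32 (SE) over all days, which was not called (adjusted p = 0.568).

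The Ckb promoter is shown because its gene was the 1 tested member with no called change. It lies on the minus strand at chr12:111672289-111672588 (GRCm38.p6), and capitals mark its match to the MEF2 site, which MEF2 factors of muscle are known to bind.
Ckb: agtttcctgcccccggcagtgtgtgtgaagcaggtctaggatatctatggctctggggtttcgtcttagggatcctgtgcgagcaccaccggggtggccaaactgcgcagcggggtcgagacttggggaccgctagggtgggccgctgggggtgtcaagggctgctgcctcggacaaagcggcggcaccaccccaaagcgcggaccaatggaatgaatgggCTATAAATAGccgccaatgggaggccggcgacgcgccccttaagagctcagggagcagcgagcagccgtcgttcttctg
The match starts at position -29 and overlaps a TATAAA at position -28, so the letters serve both searches. The MEF2 site was found in 3.19% and TATAAA in 13.6% of the 32817 promoters. No CArG box, the sequence known for serum response factor, was found in the 3 windows printed, beside 1.63% of all promoters.

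Ckmt2 was dim on every sorted array and rose above that range in selected cardiomyocytes. It had 36.9 and 31.4 there, against 9.6 and 3.0 in day 8 GFP-positive cells and 1.2 and 1.5 in day 8 GFP-negative cells. GFP-positive cells of days 5, 6 and 7 had 7.0 and 8.1, 6.9 and 4.5, and 1.1 and 4.1, and GFP-negative cells of those days had 6.7 and 9.1, 13.2 and 17.5, and 12.3 and 8.1. The order of the fractions thus differed by day, within a range in which all values were dim. Selected cardiomyocytes exceeded day 8 GFP-positive cells by 1.69 ± 0.34 (SE, adjusted p = 0.00227) and day 8 GFP-negative cells by 2.33 ± 0.34 (SE, adjusted p = 2.50e-04). The gene passed the filter on dim signals only through the selected cardiomyocytes, so that some difference was built into its entry to the test.

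Ckm, the isoform of mature muscle, was measured by 2 probe sets that disagreed. The one with the higher mean entered for the gene by rule and was dim on all 18 arrays, so Ckm was not tested: it had 14.4 and 7.8 in selected cardiomyocytes and 1.8 to 22.2 in sorted cells. The other had 42.8 and 31.4 in selected cardiomyocytes, against 8.7 and 1.6 in day 8 GFP-positive cells, 2.9 and 5.0 in day 8 GFP-negative cells and 1.4 to 12.3 over all sorted arrays. In a fit of each probe set by itself it differed by 1.93 ± 0.39 (SE, adjusted p = 0.00217 over 24382 probe sets, of which 34.4% were called) from day 8 GFP-positive cells and by 2.02 ± 0.39 (SE, adjusted p = 0.00151, with 34.9% called) from day 8 GFP-negative cells. It too passed the filter only through the selected cardiomyocytes.

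Within an array, the second Ckm probe set minus Ckb was -5.38 to -5.02 on the log2 scale in selected cardiomyocytes, and 8 of the 16 sorted arrays lay below both of them. With the Ckm probe set that entered by rule it was -6.76 to -6.24 there, and 0 of the 16 sorted arrays lay below both. Each Ckm probe set was dim on all sorted arrays, so no direction is read from either difference.

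Of 12 tested genes that serve creatine, adenylate kinase and mitochondrial exchange, 6 were higher and 1 was lower in selected cardiomyocytes than in day 8 GFP-positive cells, beside 13.7% and 21.8% of all genes, with a median of 0.72. With equal array medians 9 were higher and 1 was lower. Ak1, the adenylate kinase of muscle cytosol, had 770.8 and 819.4 against 116.3 and 118.7 (2.69 ± 0.27 SE, adjusted p = 2.06e-05). Ak5 was higher by 3.54 (adjusted p = 0.00116) and Vdac2, a channel of the outer mitochondrial membrane, by 0.77 (adjusted p = 1.70e-04). Ak4, a mitochondrial adenylate kinase, was lower, with 131.8 and 125.8 against 922.2 and 911.1 (-2.77, adjusted p = 2.93e-06). Slc6a8, the creatine transporter, had 442.8 and 457.7 in selected cardiomyocytes, against 122.0 and 62.5 in day 8 GFP-negative cells (2.27, adjusted p = 3.39e-04). Between day 8 and day 5 in GFP-positive cells 1 of the 12 was called, Gatm, the first enzyme of creatine synthesis (1.84, adjusted p = 0.0159), beside 19.4% of all genes. The count was 2 higher and 1 lower after quantile normalization, and 1 higher and 4 lower with equal array medians.

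**Figure D3:**
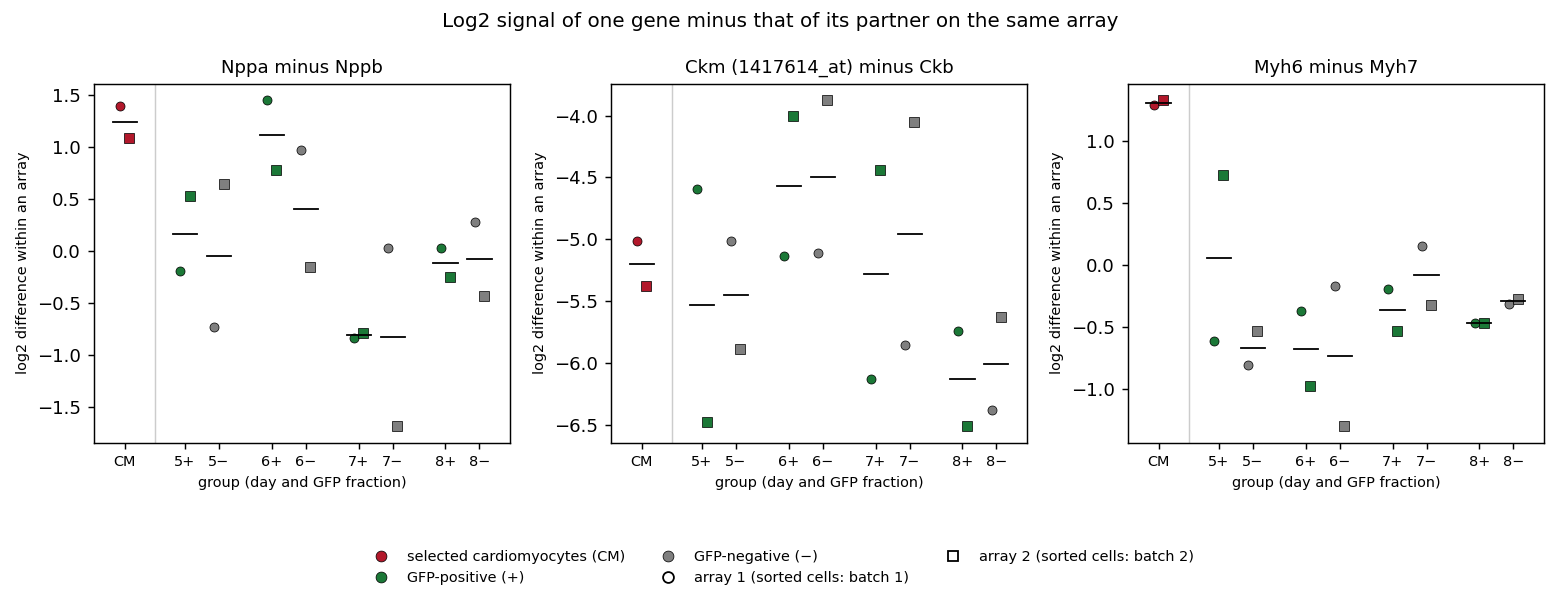
Log2 signal of one gene minus that of its partner on the same array, for Nppa and Nppb, Ckm (the second probe set) and Ckb, and Myh6 and Myh7; points are arrays, bars group means, with selected cardiomyocytes (CM) on the left and GFP-positive (+) beside GFP-negative (−) cells of each day. CM lie above 15 of 16 sorted arrays for the first pair and above all 16 for Myh6 minus Myh7, while for Ckm minus Ckb the CM arrays fall inside the sorted range, where Ckm was dim. CM were selected through the Myh6 promoter, so the last pair cannot separate maturity from selection.

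Before day 8 none of the 5 tested genes was called by limma between GFP-positive and GFP-negative cells. That holds for day 5, with 0.0149% of all genes called, and for days 6 and 7, with 0% called on each. Over all days together 0 of the 5 were called, beside 2.68% of all genes (2.14% higher and 0.538% lower): Mb differed by 0.81 ± 0.27 (SE, adjusted p = 0.129), Nppa by 0.47 ± 0.18 (SE, adjusted p = 0.194), Nppb by 0.24 ± 0.28 (SE, adjusted p = 0.706) and Ckmt2 by -0.27 ± 0.17 (SE, adjusted p = 0.431). At an unadjusted p under 0.05 stood Nppa and Mb over all days, and Ckmt2, lower in GFP-positive cells, on days 6 and 7. Of the 8 pairs of fractions, 7 had the higher Nppa signal in GFP-positive cells, 5 the higher Mb and Nppb signal, and 3 the higher Ckmt2 signal. When the batch 2 array of day 7 GFP-positive cells was left out, Mb passed the threshold over all days (1.08, adjusted p = 0.0106). Over time, 2 of the 5 (Mb and Nppa) were higher on day 8 than on day 5 in GFP-positive cells, where 11.2% of all genes were higher and 8.23% lower. In GFP-negative cells none of the 5 was called, beside 13% of all genes, 7.4% higher and 5.61% lower. The step differed between the fractions for none of the 5, beside 0.00747% of all genes. In GFP-positive cells 57.6% of all calls between day 8 and day 5 were higher, but 46.4% after quantile normalization and 15.1% with equal array medians, where the all-gene median was -0.37 in place of 0.14. In GFP-negative cells these shares were 56.9%, 48.8% and 26.7%.

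Other cell types also differed between the groups. In selected cardiomyocytes the 6 fibroblast and matrix markers summed to 20802.1 and 20949.7, against 2358.0 and 2428.2 in day 8 GFP-positive cells, and the 6 smooth muscle markers to 17325.1 and 18130.5, against 5347.7 and 5491.5. The 8 neural markers summed to 2409.8 and 2436.5, against 340.3 and 466.3, with 3 or 4 of the 8 at or above 22.5 in both groups. Most of the neural sum was Ncam1, at 1707.8 and 1777.0 against 146.1 and 132.1, and Tubb3, at 388.7 and 425.1 against 5.1 and 5.2, while Pax6 was lower, at 14.0 and 16.1 against 91.2 and 71.3. Conversely, the 6 endothelial markers summed to 150.7 and 163.2, against 3057.4 and 3566.9, and the 6 visceral endoderm markers to 218.8 and 302.3, against 11078.8 and 12698.2. The 3 embryonic red cell markers had 44.6 and 45.6, against 15469.4 and 17084.9. The skeletal muscle regulators Myod1, Myf5, Myog and Myf6 stayed under 22.5 on all 18 arrays, whereas the list as a whole summed to 2021.9 and 2098.6, against 470.6 and 486.9, nearly all of it Acta1, which heart muscle also makes. No listed marker had a signal of 0. On day 8, GFP-positive cells also exceeded GFP-negative cells in the endothelial sum, which was 437.0 and 576.9 in GFP-negative cells, and in the visceral endoderm sum, which was 1456.5 and 3510.7 there. The cardiomyocyte sum was 16756.5 and 17492.2 in day 8 GFP-positive cells, against 2476.6 and 5161.5 in day 8 GFP-negative cells. In GFP-positive cells other types also differed between days: the visceral endoderm sum was 11078.8 to 12698.2 on day 8, against 64.8 to 3593.3 on day 5, and the endothelial sum 3057.4 to 3566.9 on day 8, against 285.4 to 2077.4 on day 5. In each of these lists 3 of 6 markers were called higher on day 8, beside 11.2% of all genes. The medians were 3.67 for visceral endoderm and 1.78 for endothelium. The part of these cell types in the results for the 6 genes was not tested.

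Part of the list of heart muscle maturation genes was also higher. Of 17 tested, 7 were higher and 0 lower in selected cardiomyocytes than in day 8 GFP-positive cells, where 13.7% of all genes were higher and 21.8% lower, with a median of 1.66 beside -0.16 over all genes. Pln, which restrains the calcium pump of the sarcoplasmic reticulum, had 1809.7 and 1458.5 against 32.7 and 68.9 (4.90 ± 0.51 SE, adjusted p = 2.20e-05). Tnni3, the cardiac troponin I that follows the fetal form, had 1977.1 and 1730.0 against 123.5 and 121.5 (3.84 ± 0.72 SE, adjusted p = 0.00137). The list also holds fetal forms, so its counts do not measure maturity. Tnni1, the fetal troponin I, had 5603.2 to 5664.8 in selected cardiomyocytes, against 1463.0 to 1633.6 in day 8 GFP-positive cells. The fetal myosin Myh7 had 3136.6 to 3322.9 against 3425.6 to 3588.7. Pygm, the glycogen phosphorylase of muscle, was higher by 2.70 (adjusted p = 0.00122), and Atp2a2, the calcium pump itself, by 0.82 (adjusted p = 3.34e-04). Within an array, Myh6 minus Myh7, the adult over the fetal myosin of the mouse ventricle, was 1.29 and 1.33 in selected cardiomyocytes and lower on all 16 sorted arrays. The Myh6 promoter was the one used for selection, so maturity and selection cannot be told apart in this difference. Against day 8 GFP-negative cells 14 of the 17 were higher, beside 15.8% of all genes. Between day 8 and day 5 in GFP-positive cells 6 of the 17 were higher, beside 11.2% of all genes, among them Pygm (2.75, adjusted p = 0.00637) and Pln (1.78, adjusted p = 0.0285), but 3 after quantile normalization and 1 higher and 1 lower with equal array medians.

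**Figure D4:**
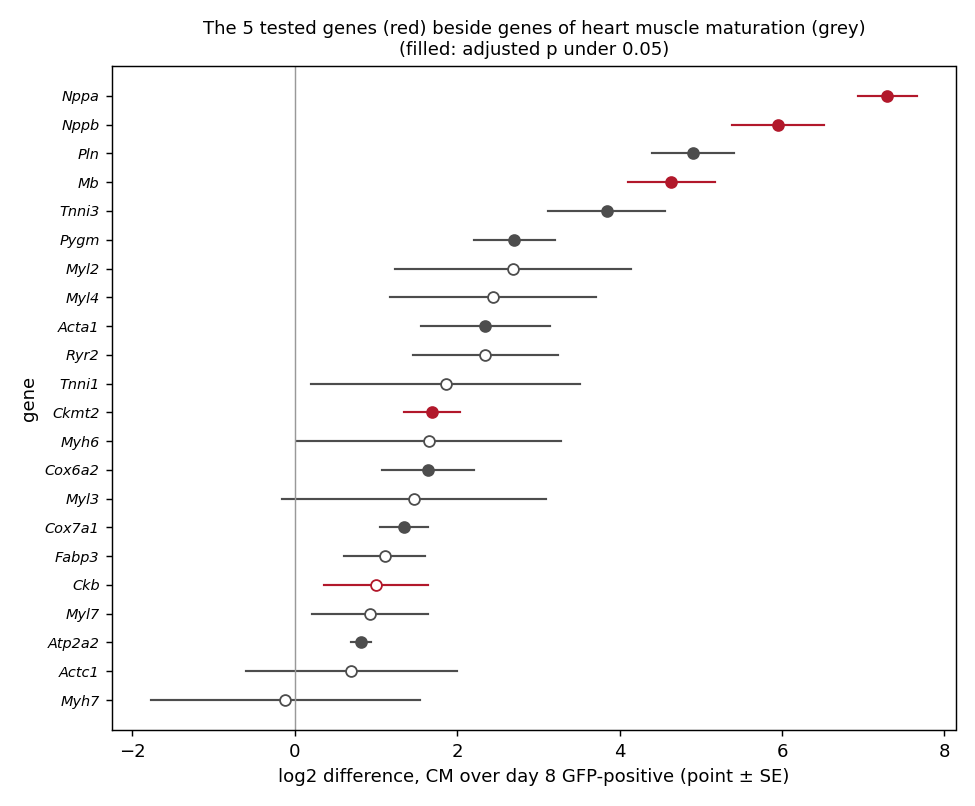
Log2 difference between selected cardiomyocytes (CM) and day 8 GFP-positive cells, with its SE, for the 5 tested genes (red) and 17 genes of heart muscle maturation (grey); filled points have an adjusted p under 0.05. Nppa at 7.30 and Nppb at 5.95 lie at the top, Pln at 4.90 and Mb at 4.64 follow, and Ckb at 1.00 lies among the genes not called. The grey genes include the fetal forms Tnni1 and Myh7.

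Of 16 tested regulators, 2 were higher and 0 lower in selected cardiomyocytes than in day 8 GFP-positive cells: Tbx20, a T-box factor of the heart, with 2166.0 and 2136.6 against 276.5 and 329.5 (2.81, adjusted p = 3.59e-04), and Srf, serum response factor (0.98, adjusted p = 0.00224). Of all genes 13.7% were higher there, and with equal array medians 5 of the 16 were higher. Gata4, a zinc finger factor of heart and endoderm, was the 1 of 16 higher in GFP-positive than in GFP-negative cells on day 8, beside 2.32% of all genes. It had 263.2 and 411.9 against 114.9 and 59.2 (1.91, adjusted p = 0.0390). Between day 8 and day 5 in GFP-positive cells 1 of the 16 was higher and 2 were lower, beside 11.2% and 8.23% of all genes. Mef2d, a MEF2 factor, was higher (0.92, adjusted p = 0.0431), and Srf (-0.99, adjusted p = 0.00821) and Hand1, a factor of the early heart (-1.24, adjusted p = 0.0421), were lower. The count was 2 higher and 2 lower after quantile normalization, and 0 higher and 4 lower with equal array medians.

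The genes whose pattern over the 18 arrays was most like each member were named by Pearson's r of log2 values, as a description. The arrays share scaling and, for sorted cells, culture. For Nppa they were Aldh1a1 (r = 0.99), Osmr (0.99) and Lclat1 (0.98), and over the 16 sorted arrays alone r was 0.75, 0.70 and 0.68. For Nppb they were Aldh1a1 (0.97), Pln (0.97) and Lmod2 (0.96), with 0.64, 0.69 and 0.60 over sorted arrays. For Mb they were Tm4sf1 (0.99), Trdn (0.98) and Slc9a7 (0.97), with 0.96, 0.86 and 0.84. For Ckb, Itga6 (0.92), Slc24a3 (0.90) and Cr1l (0.89) came first, with 0.87, 0.86 and 0.83 over sorted arrays. For Ckmt2 they were Rnf19b (0.88), Ereg (0.87) and Carns1 (0.86), with 0.69, 0.70 and 0.67 over sorted arrays, where Ckmt2 was dim throughout. For Nppa, 71 genes reached an r over 0.95, and for Ckb and Ckmt2 0 did.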

How the data were processed

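Signals of 18 Affymetrix mouse arrays were used, in 9 groups of 2 set by the labels. RNA went through 2 rounds of T7 oligo dT amplification, per the labels' protocols, which favours 3' ends. The deposited values are linear intensity signals, for which the submitters' processing notes name GCOS 1.4 and MAS5, and the 2% trimmed mean of each array was 150.0008 to 150.0012 in the deposited table. Of 45101 probe sets, 64 controls, 9160 without a gene symbol and 932 with several were left out. Each of 18193 genes took its probe set with the highest mean. The filter kept the 13379 genes that reached 22.5, the overall median signal, on 2 or more arrays, and log2(signal + 6.8), where 6.8 is the 25th percentile, was fitted over the 9 group means with limma 3.58.1 (lmFit, eBayes with a trend, 9 residual degrees of freedom) in R 4.3.3. Adjusted p-values are Benjamini-Hochberg over all genes tested, at 0.05. The number of arrays limits the precision.

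On simulated data with 13379 genes the fit recovered 76% of changes of log2 2, and 27% of changes of log2 1, between selected cardiomyocytes and day 8 GFP-positive cells. For GFP-positive over GFP-negative cells on day 8 it recovered 74% of changes of log2 2 and 28% of changes of log2 1. The simulated noise was drawn independently for each array, with no deviation shared within a batch, so the rates may differ for the real arrays. Batch numbers come from the labels. The main fit held no batch term, so its comparisons of the fractions were unpaired. Batch as an effect shared by all days was an alternative. Across genes, the correlation between fractions of the batch differences was 0.65, 0.40, 0.34 and -0.05 on days 5, 6, 7 and 8. Other scalings, offsets, filters, probe sets, fits and days, and each array left out in turn, were alternatives. From each gene list up to 4 called genes with the lowest p were named per comparison, otherwise the 2 with the lowest p, and the 3 genes with the highest Pearson's r to each member. The members, lists and markers were chosen with earlier results of these data known.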

Additional observations from a re-analysis of the deposited data

Results flagged for a closer look

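Some differences between GFP-positive and GFP-negative cells ran one way in both batches of one day and the opposite way in both batches of another, among 36 pairs of days looked at, and these contrasts between days were not tested. Mb differed by 1.00 on day 7 and 2.25 on day 8, against -0.08 on day 6, so that the difference was 1.09 larger on day 7 and 2.34 larger on day 8. Ckmt2 differed by 0.64 on day 8, against -0.83 on day 6 and -0.86 on day 7, contrasts of 1.46 and 1.4999. All sorted signals of Ckmt2, and those of Mb on day 6, were under 22.5. In batch 2 of day 7 Mb had 1.8 in GFP-positive and 1.3 in GFP-negative cells. With 2 batches a day such opposite pairs can arise by chance, and their share over all genes was not counted. No dependence on day is read from them.

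The second Ckm probe set, which did not enter for the gene, had a signal in selected cardiomyocytes above every sorted array: its lower value there was 31.4, and its highest sorted value was 12.3.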

How the results depend on the processing

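For the selected cardiomyocytes, 167 of 168 values of single genes kept their direction and side of the threshold, and 1 (Ckb against days 7 and 8 GFP-negative) passed it. These values draw on the same 2 selected arrays and so are not independent checks. They include Ckmt2, which passed the filter only through those arrays and was not tested with the 75th percentile filter. The count of called genes for the selected cardiomyocytes was 4 on leaving out any 1 array and moved between 3 and 5 under the other settings. Among sorted cells 715 of 767 values of single genes kept their direction and side of the threshold, 27 reversed, 23 lost the threshold and 2 gained it. On day 8 the count between fractions was 0 in place of 1 with an offset of 1 or at the median, equal array medians, the 75th percentile filter, the mean of all probe sets, array weights or sorted arrays alone, and 0 without any 1 array of that day. For day 8 over day 5 in GFP-positive cells it was 1 in place of 2 under quantile normalization, equal medians, the mean of all probe sets or sorted arrays alone, and 0 to 1 without single arrays. Over all days it was 0 to 1 without single arrays. The causes were not tested.

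Reversals among the alternatives were Ckmt2 on day 5 (0.0421 after quantile normalization, 0.0297 with equal medians), Ckb on day 8 (-0.00426 with equal medians) and the Ckb difference between steps (0.14 with days 7 and 8 against days 5 and 6). Leaving out single arrays reversed values that were not called, as log2 ranges. On day 5 they were -0.0379 to 0.17 for Nppa, -0.94 to 0.65 for Nppb, -0.0436 to 0.17 for Mb, -0.41 to 1.33 for Ckb and -0.15 to 0.0870 for Ckmt2. On day 6 they were -0.97 to 0.45 for Nppb and -0.60 to 0.93 for Ckb. On day 7 they were -0.23 to 0.87 for Nppa, -0.19 to 0.79 for Nppb, -0.0799 to 2.09 for Mb and -0.0117 to 1.41 for Ckb. On day 8 Ckb ran from -0.0163 to 0.45. For day 8 over day 5 in GFP-positive cells Ckb ran from -0.18 to 1.56 and Ckmt2 from -0.55 to 0.19. In GFP-negative cells Nppb ran from -0.45 to 1.13 and Mb from -0.00843 to 0.16. The Ckb difference between steps ran from -1.12 to 0.63.

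With batch as a replicate block no call of the 5 genes changed: Mb on day 8 had an adjusted p of 0.0276. The block moved the count of all genes called to 705 from 345 on day 8, to 724 from 358 over all days and to 138 from 1 for the difference between steps. One alternative, the probe set with the highest single signal, was chosen after seeing the data. Dim signals limit Ckm, Ckmt2, Mb and both peptides in sorted cells.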
